A study of Saccharomyces cerevisiae with 12 samples.

Results

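The genes described here encode subunits of the yeast vacuolar proton pump, the V-ATPase. They are the 10 genes VMA1, VMA2, VMA3, VMA4, VMA5, VMA8, VMA11, VMA13, VPH1 and STV1, chosen by function, out of 5656 genes with a probe set of their own on the array. A probe set is a group of short DNA probes whose summarised brightness gives 1 signal for a transcript. Each member was read from the probe set annotated to it alone, and for VMA1, which has 2 such sets, from the one with the higher mean signal over the 12 arrays. RNA came from budding yeast (Saccharomyces cerevisiae) that carries mitochondrial DNA (ρ+) or has lost it (ρ0). All cultures grew to early log phase with 2% glucose in complete medium (22 °C). One portion of each culture was harvested there, and the other was washed and shaken for 4 h in complete medium lacking glucose. Equal cell numbers were extracted, and polyadenylated RNA was labelled. The 4 groups are thus ρ+ in glucose, ρ+ without glucose, ρ0 in glucose and ρ0 without glucose, with 3 biological replicates each. The sources used here do not give the strain background or how the mitochondrial DNA was removed. No group was washed and shaken for 4 h with glucose present, so effects of washing, time and glucose loss cannot be told apart.

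The V-ATPase pumps protons into the vacuole, the lysosome-like organelle of yeast, and into the Golgi and endosomes. It is a rotary machine with a cytosolic part, V1, which hydrolyses ATP, and a membrane part, Vo, which carries the protons. In yeast the pump is known to come apart reversibly into V1 and Vo when glucose is removed, a change in the assembled protein that needs no change in transcript level. The proton gradient it makes drives the uptake of amino acids and metal ions into the vacuole and keeps vacuolar hydrolases active.

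The array signals were deposited as linear values in arbitrary units that the authors had scaled to a common mean on every array, so a change in total mRNA per cell could not be seen. All 10 members gave signals above the detection level of 5.82 on all 12 arrays, between 117 and 3715. Differences are log2 differences of group means from a limma fit over the 5361 genes tested. Each is given with its standard error (SE) and a p adjusted by the Benjamini-Hochberg method over all these genes, and a gene is called where this p is below 0.05. As a check of the labels, OLI1, a gene of mitochondrial DNA, gave 100 to 159 on the ρ+ arrays and less than 0.44 on every ρ0 array. The group means of RNA quality measures moved with glucose withdrawal, with the arrays apart in ρ+ and overlapping in ρ0. For the transcript SPT15 the 5′ to 3′ signal ratio averaged 0.319 ± 0.0698 (SD, n = 3) with glucose and 0.188 ± 0.00577 without it in ρ+, and 0.249 ± 0.131 and 0.140 ± 0.0419 in ρ0. For the transcript ACT1 this ratio moved less, from 0.705 ± 0.00604 to 0.633 ± 0.0333 in ρ+ and from 0.712 ± 0.103 to 0.648 ± 0.161 in ρ0. The mean log2 signal of ribosomal RNA controls went from 7.29 to 8.61 in ρ+ and from 7.52 to 8.35 in ρ0. On 1 ρ0 glucose array (replicate 2) the added CreX control gave 285, against 487 to 869 on the others, and on ρ0 no glucose replicate 1 the added BioDn control gave 193, against 244 to 413. The part of RNA quality in the results below was not tested, and a call that ended without both of these arrays is given with its value.

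Most pump genes were not called in any comparison. After glucose withdrawal VMA2 and VMA5 were called higher in ρ0 cells, where 4.59% of all genes were called higher and 12.4% lower. VMA8 was called lower in ρ+ cells, where 22.3% of all genes were called lower and 10.5% higher. The difference of glucose responses between the strains was called for VMA5, where 1.57% of all genes were called higher and 5.35% lower. That call was fragile, as it held in only 3 of the 12 fits that each left out 1 array. All of these calls ended after scaling to the poly-A control transcripts. The other members passed no test in the 5 comparisons, which does not show that they were unchanged. Among members, the highest group mean exceeded the lowest by 1.05-fold for VMA3 up to 1.98-fold for VMA5.

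**Figure D1:**
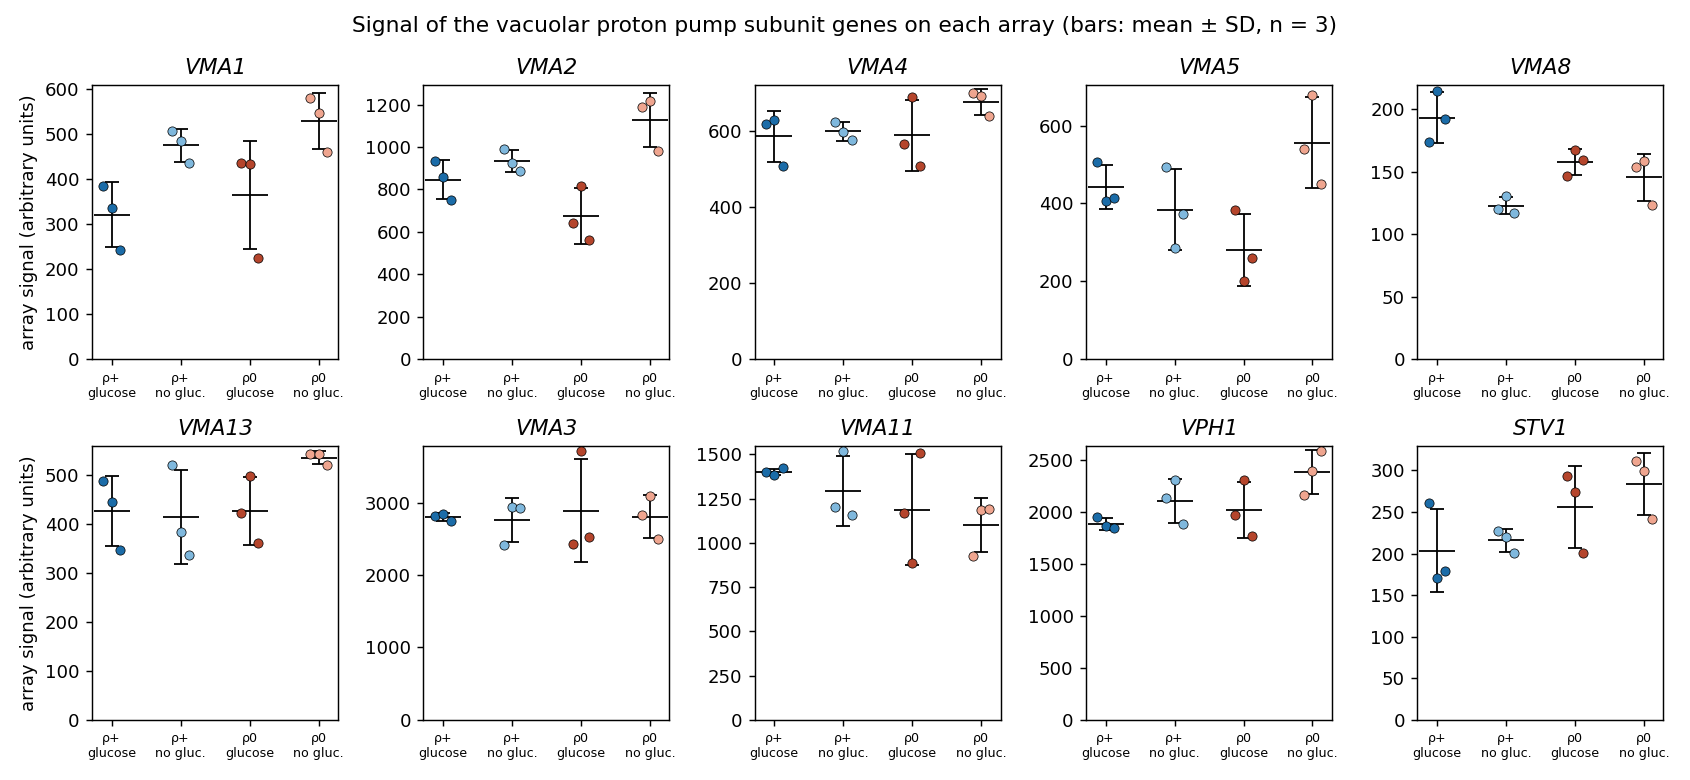
Array signal (linear, arbitrary units, axes from 0) of the 10 pump genes in the 4 groups. Points are the 3 arrays of a group, and bars give the mean ± SD. VMA2 and VMA5 are higher on all 3 ρ0 arrays without glucose than on the ρ0 arrays in glucose, and VMA8 is lower on all 3 ρ+ arrays without glucose than in ρ+ in glucose.

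The V1 part holds a ring of alternating catalytic A subunits, from VMA1, and regulatory B subunits, from VMA2. VMA2 gave signals of 934, 856 and 748 in ρ+ in glucose and 988, 923 and 887 without glucose. In ρ0 it gave 640, 818 and 561 in glucose and 1189, 1215 and 980 without. The ρ0 arrays without glucose lay above all ρ0 arrays in glucose, while the ρ+ arrays overlapped. VMA2 rose 1.69-fold on withdrawal in ρ0 (log2 0.75 ± 0.16 (SE), limma adjusted p = 0.00601). In ρ+ its log2 difference was 0.15 ± 0.16 (adjusted p = 0.517). The rise in ρ0 was still called without any single array, with an adjusted p of at most 0.0333, but not after scaling to the poly-A control transcripts (log2 0.52, adjusted p = 0.101). That scale rests on 4 probe sets. Their mean log2 signal ran from 5.04 to 5.67 over the arrays, with an SD of 0.315 in ρ+ in glucose. How far this spread enters a call lost on the poly-A scale was not tested.

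VMA1 encodes subunit A together with an intein, a protein segment that splices itself out and acts as a homing endonuclease. Its signals were 385, 336 and 242 in ρ+ in glucose and 507, 484 and 436 without. In ρ0 they were 436, 433 and 225 in glucose and 581, 546 and 461 without. In both strains all arrays without glucose lay above those in glucose, and the third replicate in glucose was the lowest array of its strain. The log2 difference was 0.59 ± 0.24 in each strain and missed the threshold (adjusted p = 0.0685 in ρ+ and 0.0984 in ρ0). In ρ+ it was called after median centring (adjusted p = 0.0299), in a fit to both groups alone (0.0143), and without ρ0 glucose replicate 3 (0.0204), ρ0 glucose replicate 2 (0.0474) or both low-control arrays (0.047). In ρ0 it was called without ρ0 glucose replicate 2 (0.0426) and for the mean of its probe sets (0.0343). The other probe set of VMA1, which the array's naming marks as shared with similar sequences, was dimmer. In ρ0 it gave 156, 143 and 142 in glucose and 248, 199 and 223 without, and it was called there (log2 0.59 ± 0.15, adjusted p = 0.0163). In ρ+ it gave 208, 210 and 179 in glucose and 260, 247 and 222 without (log2 0.29 ± 0.15, adjusted p = 0.169). Both probe sets had higher means without glucose, and the strain in which the threshold was passed depended on the set. The sources used here do not say which stretch of the gene either set covers.

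The stalks of V1 link the ring to the membrane part. VMA5 encodes subunit C, which holds V1 to the peripheral stalks and leaves the complex when it comes apart. VMA5 gave signals of 508, 407 and 413 in ρ+ in glucose and 493, 286 and 372 without. In ρ0 it gave 382, 200 and 261 in glucose and 539, 680 and 449 without. In order, the group means were 556 ± 116 in ρ0 without glucose, 443 ± 56.5 in ρ+ in glucose, 384 ± 104 in ρ+ without and 281 ± 92.9 in ρ0 in glucose (SD, n = 3), and each neighbouring pair in this order overlapped. VMA5 rose 2.02-fold on withdrawal in ρ0 (log2 1.01 ± 0.24, limma adjusted p = 0.0111). In ρ+ its log2 difference was −0.23 ± 0.24 (adjusted p = 0.488). The call in ρ0 ended without ρ0 no glucose replicate 2, the array with the highest VMA5 signal (log2 0.86, adjusted p = 0.056). It also ended without both arrays that had low added controls (0.80, adjusted p = 0.0566) and after scaling to the poly-A controls (0.78, adjusted p = 0.0556).

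VMA8 encodes subunit D of the central stalk, which turns as ATP is hydrolysed. Its signals were 174, 215 and 192 in ρ+ in glucose and 120, 131 and 117 without. In ρ0 they were 146, 168 and 160 in glucose and 154, 159 and 123 without. All ρ+ arrays without glucose lay below every array in glucose, and the ρ0 groups overlapped. VMA8 fell 1.56-fold on withdrawal in ρ+ (log2 −0.65 ± 0.16, limma adjusted p = 0.00703). In ρ0 its log2 difference was −0.12 ± 0.16 (adjusted p = 0.635). The call in ρ+ held without any single array but ended after median centring (log2 −0.44, adjusted p = 0.0794) and when arrays were scaled to the poly-A controls (−0.52, adjusted p = 0.149). The median of all genes was −0.19 in this comparison, so VMA8 lay 0.46 below that median.

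VMA4 encodes subunit E of the peripheral stalks, and VMA13 encodes subunit H, which keeps free V1 from hydrolysing ATP. VMA4 gave 618, 629 and 508 in ρ+ in glucose and 622, 597 and 574 without, and 565, 689 and 507 in ρ0 in glucose and 700, 690 and 637 without. VMA13 gave 487, 444 and 347 in ρ+ in glucose and 521, 384 and 335 without. In ρ0 it gave 421, 498 and 360 in glucose and 544, 542 and 520 without. The 3 VMA13 arrays of ρ0 without glucose were close together and lay above those in glucose, and its other groups were spread widely. The log2 difference of VMA13 on withdrawal was 0.34 ± 0.19 in ρ0 (adjusted p = 0.232) and −0.05 ± 0.19 in ρ+ (adjusted p = 0.856). For VMA4 it was 0.21 ± 0.15 (adjusted p = 0.361) and 0.04 ± 0.15 (adjusted p = 0.872).

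The Vo part holds a ring of proteolipids, small membrane proteins that carry protons as the ring turns. VMA3 encodes the main proteolipid, subunit c, and VMA11 the related subunit c′. VMA3 gave 2812, 2850 and 2747 in ρ+ in glucose, 2414, 2944 and 2930 in ρ+ without, 2431, 3715 and 2533 in ρ0 in glucose and 2839, 3092 and 2502 in ρ0 without. All 4 groups overlapped, and ρ0 glucose replicate 2 gave the highest signal of the 12 arrays. Its log2 difference on withdrawal was −0.03 in ρ+, with a 95% interval of −0.36 to 0.31, and −0.02 in ρ0, with an interval of −0.35 to 0.31 (adjusted p = 0.914 and 0.944). VMA11 gave 1398, 1386 and 1421 in ρ+ in glucose and 1200, 1517 and 1157 without, and 1170 (ρ0 glucose replicate 1), 885 and 1508 in ρ0 in glucose and 926, 1187 and 1192 without. The ρ+ glucose arrays of VMA11 were tightly grouped, and those of ρ0 in glucose ranged from the lowest to nearly the highest of the 12. Its log2 difference on withdrawal was −0.13 in ρ+ (interval −0.52 to 0.26, adjusted p = 0.619) and −0.08 in ρ0 (interval −0.47 to 0.30, adjusted p = 0.784).

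Subunit a of Vo, the channel through which protons reach the ring, has 2 forms. VPH1 encodes the form of the vacuole, and STV1 encodes that of the Golgi and endosomes. VPH1 gave 1954, 1865 and 1846 in ρ+ in glucose and 2137, 2307 and 1885 without, and 1974, 2312 and 1774 in ρ0 in glucose and 2165, 2398 and 2589 without. STV1 gave 261, 171 and 179 in ρ+ in glucose and 227, 220 and 201 without, and 294, 274 and 200 in ρ0 in glucose and 311, 300 and 241 without. Their groups overlapped on withdrawal in both strains. For VPH1 the log2 difference was 0.16 ± 0.13 in ρ+ (adjusted p = 0.397) and 0.24 ± 0.13 in ρ0 (adjusted p = 0.226). For STV1 it was 0.11 ± 0.20 (adjusted p = 0.710) and 0.16 ± 0.20 (adjusted p = 0.618).

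Whether paired subunits changed unequally was asked of the log2 ratio within each array. By a two-sided exact permutation test, the ratio of VPH1 to STV1 differed on withdrawal by 0.05 in ρ+ (exact p = 0.9) and by 0.08 in ρ0 (exact p = 0.8). Between ρ0 and ρ+ it differed by −0.25 in glucose (exact p = 0.3) and by −0.21 without (exact p = 0.4). For VMA11 to VMA3 these differences were −0.10 and −0.06 on withdrawal (exact p = 0.6 and 0.9) and −0.29 and −0.25 between the strains (exact p = 0.7 and 0.2). With 3 arrays against 3, the smallest p of this test is 0.1, and after adjustment over the 8 tests every p was 0.9.

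The comparisons share groups, so they are not independent of each other. Counted together, 1 of the 10 pump genes fell and 0 rose on glucose withdrawal in ρ+, where 22.3% of all genes tested by limma were called lower and 10.5% higher (2 members had an unadjusted p below 0.05). In ρ0, 2 rose and 0 fell, against 4.59% of all genes higher and 12.4% lower (3 members had an unadjusted p below 0.05). In ρ0 the replicates of 4 members did not overlap and were higher without glucose (VMA1, VMA2, VMA5 and VMA13), as held for 9.44% of all genes. In ρ+ this held for VMA1 upward and VMA8 downward, against 16.5% and 35.1% of all genes. The median log2 difference of the members was 0.01 in ρ+ and 0.23 in ρ0, beside −0.19 and −0.11 over all genes. In ρ0 the 6 V1 members had a median of 0.47, with 5 of 6 above 0, and the 4 Vo members 0.07, with 2 of 4 above 0. In ρ+ these medians were −0.01 and 0.04. Measured subunit genes outside the members did not follow this split. In ρ0 the V1 genes VMA7 and VMA10 had −0.38 and −0.21. The Vo genes VMA16 and VMA6 had −0.17 and 0.18, and VOA1 had 0.25.

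**Figure D2:**
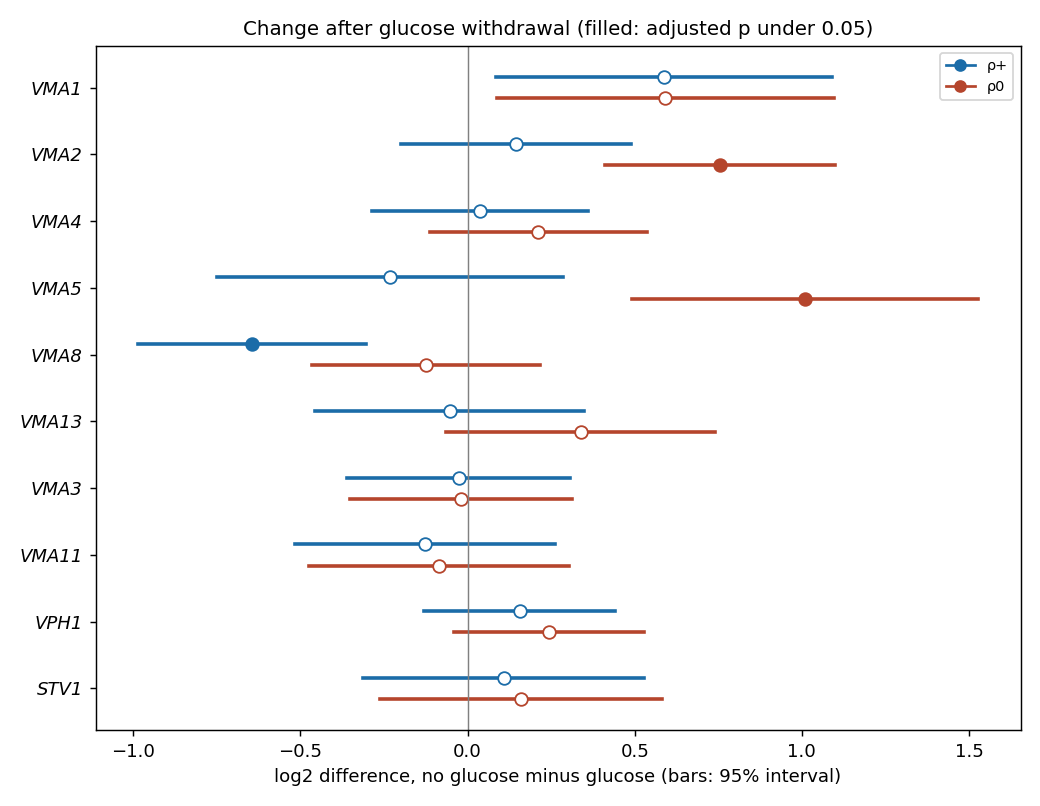
Log2 difference of each pump gene after glucose withdrawal (no glucose minus glucose) in ρ+ (blue) and ρ0 (red), with 95% intervals from the limma fit. Filled points have an adjusted p below 0.05: VMA2 at 0.75 and VMA5 at 1.01 in ρ0, and VMA8 at −0.65 in ρ+. The 4 Vo genes at the bottom have intervals that include 0 in both strains.

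No member passed the test between ρ0 and ρ+ cells in limma, in glucose or without it, and 1 had an unadjusted p below 0.05 in each comparison, VMA5 in both. In glucose VMA5 gave 281 ± 92.9 in ρ0 and 443 ± 56.5 in ρ+ (SD, n = 3), with no overlap, and a log2 difference of −0.70 ± 0.24 (SE, adjusted p = 0.095). Without glucose it gave 556 ± 116 in ρ0 and 384 ± 104 in ρ+, with overlap, and a log2 difference of 0.55 ± 0.24 (adjusted p = 0.0988). The sign of the strain difference of VMA5 was thus opposite in the 2 media, which is the same contrast as the difference of responses below. Without ρ0 glucose replicate 1 the value in glucose was called (log2 −0.94, adjusted p = 0.0456). Without ρ+ no glucose replicate 1, VMA13 was called higher in ρ0 without glucose (log2 0.57, adjusted p = 0.0475), against 0.40 ± 0.19 with all arrays (adjusted p = 0.123). VMA5 and VMA8 were the 2 members with no overlap and lower signals in ρ0 in glucose, as held for 8.06% of all genes. VMA4 and STV1 were the 2 with no overlap and higher signals in ρ0 without glucose, as held for 31.4%. Over all genes, 5% were called higher and 1.45% lower in ρ0 in glucose, and 20.6% and 9.4% without glucose. The members' median was 0.00 in glucose and 0.21 without, beside 0.13 and 0.21 over all genes.

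**Figure D3:**
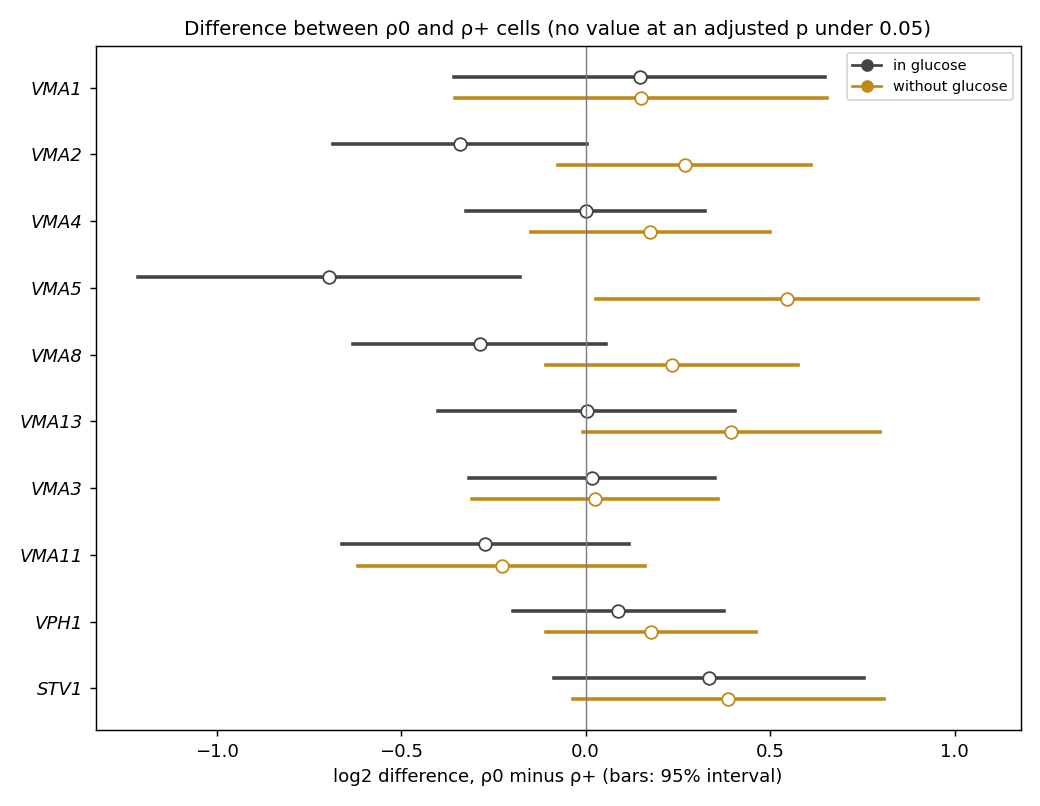
Log2 difference of each pump gene between ρ0 and ρ+ cells in glucose (dark grey) and without glucose (ochre), with 95% intervals from the limma fit. Open points have an adjusted p of 0.05 or more, which holds for all 20 values. VMA5 lies at −0.70 in glucose and at 0.55 without.

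Whether the strains responded unlike each other to withdrawal was tested as the difference of their glucose responses, ρ0 minus ρ+. It was called for VMA5 (log2 1.24 ± 0.34 (SE), limma adjusted p = 0.0407), with a 95% interval of 0.51 to 1.98. VMA2 had 0.61 ± 0.23 (adjusted p = 0.124) and VMA8 0.52 ± 0.23 (adjusted p = 0.184), both with an unadjusted p below 0.05. All 10 members had a value above 0, as had 56.7% of all genes, and the members' median of 0.13 stood beside 0.09 over all genes. The values of the 4 Vo members lay between 0.01 and 0.09, and those of the 6 V1 members between 0.00 and 1.24. Outside the members, the Vo genes VMA16 and VMA6 had 0.72 and 0.27, and VOA1 had 0.39. The V1 genes VMA7 and VMA10 had 0.17 and −0.08, so the narrow Vo range holds for the members alone. Of all genes 1.57% were called higher and 5.35% lower in this comparison, and 1 of 10 members was called higher.

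The VMA5 call on the difference of responses was fragile. It held without 3 of the 12 single arrays and ended without each of the others. It ended without ρ+ glucose replicate 1 (adjusted p = 0.103), 2 (0.0745) or 3 (0.0694) and without ρ+ no glucose replicate 2 (0.096) or 3 (0.0802). It also ended without ρ0 glucose replicate 2 (0.0607) or 3 (0.0662) and without ρ0 no glucose replicate 1 (0.069) or 2 (0.101), while the log2 value stayed between 1.02 and 1.49. It ended as well without both low-control arrays (log2 1.04, adjusted p = 0.0837), on the poly-A scale (0.89, adjusted p = 0.213) and with no intensity trend in the fit (adjusted p = 0.0563). VMA2 was called here without ρ0 glucose replicate 2 (log2 0.76, adjusted p = 0.0365).

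**Figure D4:**
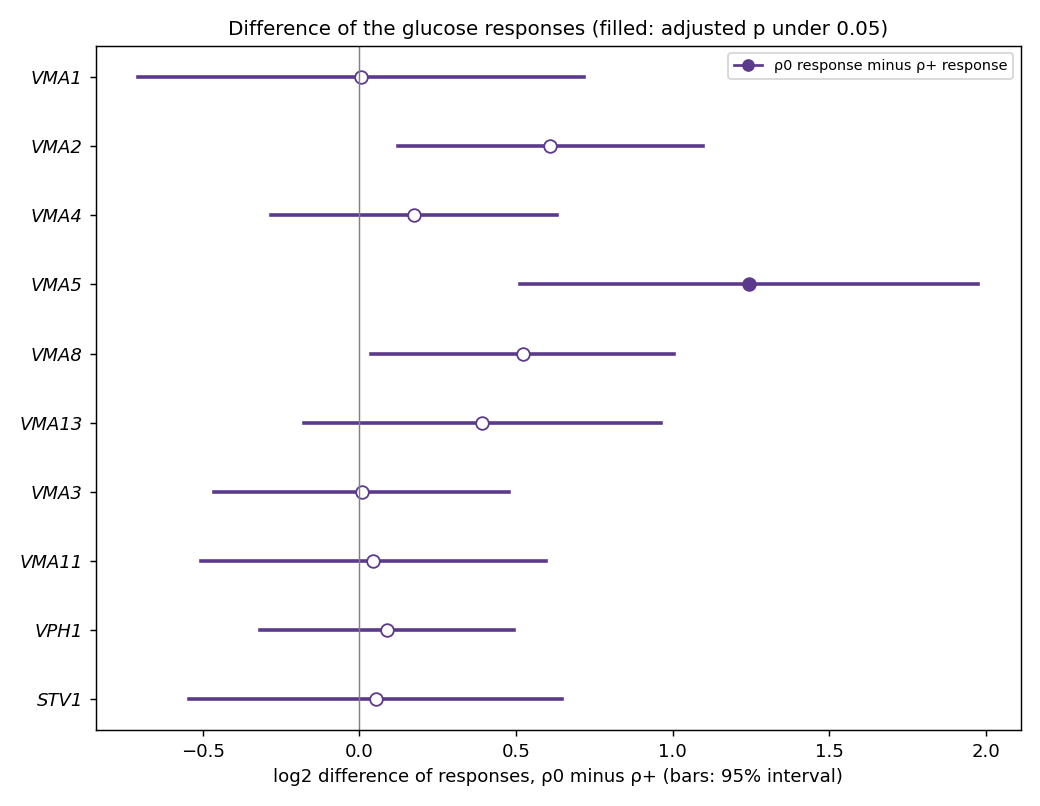
Difference of the glucose responses of each pump gene, ρ0 minus ρ+ on the log2 scale, with 95% intervals from the limma fit. The filled point, VMA5 at 1.24, has an adjusted p below 0.05. VMA2 at 0.61 and VMA8 at 0.52 have intervals that leave out 0 but adjusted p-values above the threshold.

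The members did not move as 1 block across the 12 arrays. Over their 45 pairs, Pearson's r of log2 signals had a median of 0.27 and ranged from −0.68, for VMA4 with VMA11, to 0.86, for VMA4 with VMA13. The 4 highest values, 0.78 to 0.86, all joined genes among VMA1, VMA2, VMA4 and VMA13. Against the mean of all members, r is raised because the gene itself is part of that mean. There r was 0.90 for VMA2, 0.86 for VMA4 and 0.85 for VMA13, but −0.42 for VMA11 and −0.06 for VMA8. These are descriptions over arrays that share a group structure and a scaling. The mean of the members' centred log2 signals was 0.18 ± 0.11 (SD, n = 3) in ρ0 without glucose, −0.13 ± 0.14 in ρ0 in glucose, −0.03 ± 0.13 in ρ+ in glucose and −0.03 ± 0.086 in ρ+ without. In each of the 4 groups the array labelled replicate 3 had the lowest mean.

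**Figure D5:**
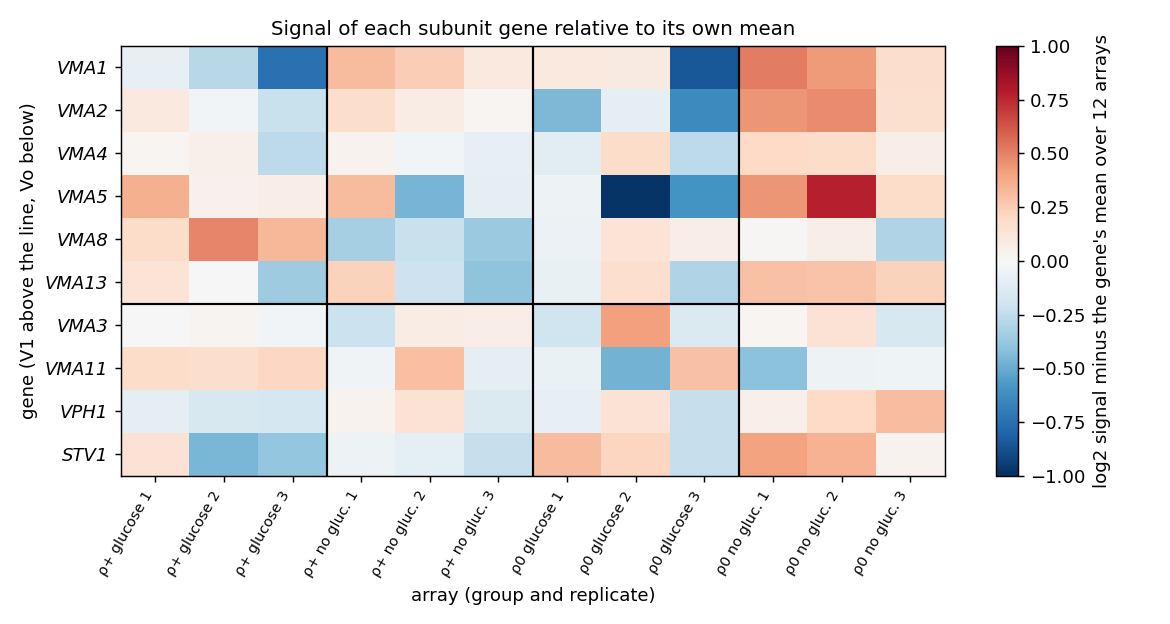
Log2 signal of each pump gene (rows, V1 above the line and Vo below) on each of the 12 arrays (columns), minus the gene's own mean over the arrays. Red is above and blue below the mean. VMA1, VMA2, VMA4, VMA5 and VMA13 are red on all 3 arrays of ρ0 without glucose, as are the Vo genes VPH1 and STV1, while VMA8 is blue on the 3 arrays of ρ+ without glucose.

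Of 5314 other genes, the 5 whose log2 signals followed the members' mean most closely over the 12 arrays were CSC1 (Pearson's r = 0.95), TCP1 (0.95), MCA1 (0.94), GAS3 (0.93) and STT4 (0.92). CSC1 encodes a calcium-permeable channel, TCP1 a subunit of the cytosolic chaperonin, MCA1 a metacaspase, GAS3 a cell wall protein of a glucanosyltransferase family and STT4 a phosphatidylinositol 4-kinase. They were picked for this likeness, which is a description and no test.

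Of the 6 other subunit genes listed, 5 were measured, and VMA9 was not analysed here. In ρ+, 1 of these 5 fell on withdrawal and 0 rose, where 22.3% of all genes fell. This was VMA16, for the proteolipid c″, with 1700, 1853 and 2142 in glucose and 1208, 1392 and 630 without. It fell 1.85-fold (log2 −0.89 ± 0.23 (SE), limma adjusted p = 0.00765), while in ρ0 its log2 difference was −0.17 ± 0.23 (adjusted p = 0.637). The call held without any single array but ended with poly-A scaling (log2 −0.77, adjusted p = 0.0912), and the log2 value moved to −0.54 without ρ+ no glucose replicate 3. The difference of its responses was 0.72 ± 0.32 (adjusted p = 0.193). VMA6 for subunit d, VMA7 for subunit F, VMA10 for subunit G and VOA1 for a Vo-associated protein passed no test in any comparison, with log2 values between −0.55 and 0.39.

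Genes for building the pump in the endoplasmic reticulum fell in ρ+ cells. Of 4 listed, 3 were measured (VMA12 was not analysed here), and all 3 fell on withdrawal in ρ+, in a comparison where 22.3% of all genes fell. VMA22 gave 70.2, 58.1 and 76.1 in glucose and 43.1, 37.4 and 33.4 without, and fell 1.76-fold (log2 −0.82, limma adjusted p = 0.0154). VMA21 gave 167, 177 and 185 in glucose and 91.4, 131 and 118 without, and fell 1.56-fold (log2 −0.64, adjusted p = 0.017). PKR1 gave 366, 447 and 493 in glucose and 288, 274 and 329 without, and fell 1.45-fold (log2 −0.54, adjusted p = 0.0468). The groups of all 3 genes were apart, and 35.1% of all genes were likewise apart and lower in this comparison. The median of the 3 was −0.64, beside −0.19 over all genes. In ρ0 none was called by limma, where 12.4% of all genes were called lower, and 2 had an unadjusted p below 0.05. Their median in ρ0 was −0.54, beside −0.11 over all genes. There 1 was called lower with the replicate block, and 2 without ρ0 no glucose replicate 3. The difference of responses was not called for any of them, so the strains are not shown to differ here.

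The calls of these 3 assembly genes in ρ+ depended on single arrays and on the scaling. Between 0 and 3 of them were called without 1 array, with 0 without ρ+ glucose replicate 3. There the adjusted p was 0.0638 for VMA22, 0.0611 for VMA21 and 0.168 for PKR1. VMA22 was also not called without ρ+ no glucose replicate 3 (0.0579), nor VMA21 without ρ+ glucose replicate 2 (0.053) or ρ+ no glucose replicate 1 (0.0846). PKR1 kept its call without 5 of the 12 arrays. After median centring VMA22 alone was called, and on the poly-A scale none was (adjusted p = 0.118 for VMA22, 0.201 for VMA21 and 0.358 for PKR1).

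The RAVE complex, made by RAV1, RAV2 and SKP1, puts the pump back together after glucose returns, and OXR1 and RTC5 act in its disassembly. Of these 5 genes 0 were called on withdrawal in ρ+, with 1 at an unadjusted p below 0.05 in limma. Of all genes, 22.3% were called lower and 10.5% higher on withdrawal in ρ+, and 12.4% lower and 4.59% higher in ρ0. In ρ0, RAV2 was called lower (log2 −0.92, adjusted p = 0.0285), with 38.2, 52.2 and 49.4 in glucose and 14.7, 23.2 and 38.3 without, groups that overlapped slightly. Its call ended without ρ0 no glucose replicate 1 (log2 −0.60, adjusted p = 0.137) or 2 (0.0783) and without ρ0 glucose replicate 2 (0.0569) or 3 (0.0885). It ended too without both low-control arrays (log2 −0.52, adjusted p = 0.207), in a fit to both groups alone (0.0863), after median centring (0.0596) and after quantile normalization (0.0577). SKP1, which also serves in ubiquitin ligases, was called lower in ρ0 than in ρ+ without glucose (log2 −0.66, adjusted p = 0.0175), as were 9.4% of all genes. It gave 332, 326 and 440 there, against 568, 552 and 600 in ρ+. That call ended without ρ+ no glucose replicate 3 (0.0545) or without ρ0 no glucose replicate 1 (0.0597) or 2 (0.0614), and on the poly-A scale (0.0658).

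Among 11 transporters of the vacuolar membrane, many of them driven by the proton gradient, 3 fell and 0 rose on withdrawal in ρ+, where 22.3% of all genes fell. ZRC1, a zinc and proton antiporter gene, gave 399, 460 and 484 in glucose and 297, 222 and 279 without (1.68-fold lower, limma adjusted p = 0.00772). YPQ1, for a transporter of basic amino acids, gave 345, 310 and 344 and then 199, 220 and 213 (1.57-fold lower, adjusted p = 0.00719). The third was AVT1, for import of amino acids into the vacuole (1.47-fold lower, adjusted p = 0.014, and 0.0617 without ρ+ glucose replicate 3). None of the 3 was called on the poly-A scale (adjusted p from 0.14 for ZRC1 to 0.229 for AVT1), and ZRC1 alone after median centring (0.053 for YPQ1 and 0.157 for AVT1). In ρ0 none of the 11 was called on withdrawal by limma, with 2 at an unadjusted p below 0.05. There 12.4% of all genes were called lower and 4.59% higher. The difference of responses was not called for any of the 11, so the strains are not shown to differ in it. Without glucose 3 of the 11 were called higher in ρ0 than in ρ+, as were 20.6% of all genes. These were VMR1, an ABC transporter gene, with 47.4 ± 10.2 (SD, n = 3) in ρ0 against 16.2 ± 2.48 in ρ+, apart on all arrays (2.74-fold, adjusted p = 0.000646), COT1 for zinc and cobalt (1.60-fold, adjusted p = 0.0203) and AVT4 for export of amino acids (1.50-fold, adjusted p = 0.0196). VMR1 was called in glucose too (1.89-fold, adjusted p = 0.0385), but not without ρ+ glucose replicate 1 (0.0761), 2 (0.1) or 3 (0.145) or without ρ0 glucose replicate 1 (0.137) or 2 (0.0867). That call ended too without both low-control arrays (0.0781), after quantile normalization (0.129) or median centring (0.109) and in a fit to both groups alone (0.0738). The calls of COT1 and AVT4 ended without ρ+ no glucose replicate 3 (0.0797 and 0.0725) or ρ0 no glucose replicate 2 (0.0784 for each), after median centring (0.104 and 0.159) and on the poly-A scale (0.256 and 0.245).

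Of 11 vacuolar hydrolase genes, 4 rose and 0 fell on withdrawal in ρ+, where 10.5% of all genes rose. CPS1 for carboxypeptidase S gave 28.7, 28.8 and 26.3 in ρ+ in glucose and 115, 103 and 102 without, with no overlap, and rose 3.69-fold (limma adjusted p = 0.000156). PRB1 for proteinase B rose 2.21-fold (adjusted p = 0.0103, and 0.0569 without ρ+ glucose replicate 3). ATG15 for a vacuolar lipase, named here after its values were seen, rose 1.88-fold (adjusted p = 0.0325), but was called without only 7 of the 12 single arrays. The call ended when replicate 1 (0.0949), 2 (0.0622) or 3 (0.072) of ρ+ in glucose, or replicate 2 (0.128) or 3 (0.0573) of ρ+ without glucose, was left out. APE3 for aminopeptidase Y rose 1.37-fold (adjusted p = 0.044), and was likewise called without 7 of the 12. Its call ended when replicate 2 (0.123) or 3 (0.142) of ρ+ in glucose, replicate 2 (0.148) or 3 (0.0999) of ρ+ without glucose, or replicate 1 of ρ0 in glucose (0.0536) was left out, on the poly-A scale (0.0909) and with no intensity trend (0.0725). In ρ0, 2 of the 11 rose, against 4.59% of all genes. These were PEP4 for proteinase A (1.43-fold, adjusted p = 0.0302) and APE3 (1.53-fold, adjusted p = 0.0178). Neither rise in ρ0 was called without ρ0 glucose replicate 3 (0.111 for PEP4 and 0.0876 for APE3) or replicate 2 of ρ0 without glucose (0.0831 for each), and PEP4 also lost its call without replicate 1 of ρ0 in glucose (0.104) or of ρ0 without glucose (0.113). The count in ρ+ ranged from 1 to 4 without single arrays, with 1 when ρ+ glucose replicate 3 was left out and 2 when its replicate 2, or replicate 2 or 3 of ρ+ no glucose, was left out, and the count in ρ0 from 0 to 4, with 0 without ρ0 glucose replicate 3. The scaling moved these counts as well. Over all genes the higher calls in ρ+ were 561, and 454 to 807 over the settings other than leaving out 1 array. Among the hydrolase genes the 4 in ρ+ became 7 after median centring. In ρ0 the 2 became 0 on the poly-A scale (log2 0.28, adjusted p = 0.393 for PEP4 and 0.39, adjusted p = 0.253 for APE3) and in a fit to both groups alone, 1 with no intensity trend, 4 after quantile normalization or without both low-control arrays, and 5 after median centring or with the replicate block.

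Between the strains without glucose, 2 of the 11 hydrolase genes were called higher and 2 lower in ρ0, where 20.6% of all genes were called higher and 9.4% lower, and 3 of these calls held without any single array. CPS1 was 2.71-fold lower in ρ0 (limma adjusted p = 0.00153) and PHO8, for the vacuolar alkaline phosphatase, 1.81-fold lower (adjusted p = 0.00131). AMS1 for alpha-mannosidase was 2.01-fold higher (adjusted p = 0.00223) and also 2.50-fold higher in glucose (adjusted p = 0.00129), with 57.9, 68.6 and 44.0 in ρ0 against 25.7, 20.8 and 18.4 in ρ+. The fourth was PEP4, 1.42-fold higher in ρ0 without glucose (adjusted p = 0.021), whose call ended without ρ+ no glucose replicate 1 (0.0681) or 2 (0.0641) and without ρ0 no glucose replicate 1 (0.0777) or 2 (0.0551), after median centring (log2 0.31, adjusted p = 0.217) and on the poly-A scale (0.35, adjusted p = 0.323). Of the plasma membrane proton pump genes, PMA1 and PMA2, neither was called in any comparison by limma, with an unadjusted p below 0.05 for 1 of them on withdrawal in ρ+ and for both in ρ0. PMA1 had a log2 difference on withdrawal of −0.18 in ρ+ (adjusted p = 0.311) and −0.34 in ρ0 (adjusted p = 0.0838). Its ρ0 arrays were apart at 1730, 1914 and 1664 in glucose and 1417, 1399 and 1364 without. Those of PMA2 were apart as well, at 27.4, 19.0 and 26.1 in glucose and 17.4, 18.6 and 15.2 without. The share of all genes apart and lower in ρ0 is not given here.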

How the data were processed

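For each of 12 Affymetrix arrays the authors deposited linear intensity values, 1 for each probe set, made with MAS5 per the submitters' processing notes (its version is not given in the sources used here). Polyadenylated RNA was labelled with biotin, per the labels' protocols. The intensity values show the authors' scaling: the mean without the extreme 2% at each end was 99.93 on every array. Of 9335 probe sets, 6504 list a single gene in the platform annotation, updated to current RefSeq symbols. Signals were analysed as log2(signal + 1.50), the 10th percentile of all signals, and the detection level of 5.82 is the 25th percentile. The 5361 genes with at least 1 group mean above it were fitted with limma 3.58.1 in R 4.3.3 (4 group means, 12 arrays, 8 residual degrees of freedom, intensity trend, no block, two-sided tests). Fold changes are on this log2 scale. The number of arrays limits precision: the median SE of a log2 difference was 0.21 for withdrawal in ρ+. The fit was also run on simulated data with independent values, which lends no support to the sizes reported here. Members, gene lists and naming rules were chosen with earlier results of these data known. Of the other pathway genes, those called are named, at most 6 a list, and the other subunits all. Replicates are called biological in the labels, which divide each master culture between the media but do not tie a number to a culture. Same-numbered arrays were checked for pairing: their deviations from group means correlated between −0.11 and 0.52, above 0.1 for 6 of 12 pairs. Only pairs within a strain can share a culture. These gave 0.02, −0.03 and 0.11 in ρ+ and 0.00, 0.16 and 0.52 in ρ0, which does not settle the pairing. The numbers were not treated as pairs, so the withdrawal tests leave shared cultures out of account. Log2 ratios of 2 genes were compared by exact permutation. Alternatives were another pseudocount, no filter, a floor, the mean of probe sets, 3 scalings, fewer groups or arrays, no trend and a replicate block. No genome build is stated, so no coordinates are given.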

Additional observations from a re-analysis of the deposited data

Results flagged for a closer look

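VMA5 stood out because the difference of its glucose responses between the strains was called. The difference of the responses, ρ0 minus ρ+, was 1.24 on the log2 scale (limma adjusted p = 0.0407), from −0.23 in ρ+ and 1.01 in ρ0. Of the arrays behind it, ρ0 without glucose was higher than ρ0 in glucose on 3 of 3 arrays, and the ρ+ arrays overlapped. It was called without 3 of 12 single arrays.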

How the results depend on the processing

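Over the 10 genes and 5 comparisons, no called value changed sign under any of the alternatives. Values that were not called changed sign 83 times, with the other probe set of VMA1 counted too. The number of members called higher on withdrawal in ρ+ was 0 and became 1 after median centring, with only the 2 groups compared, with the replicate block and with both arrays of low added controls left out, and it ranged from 0 to 1 without single arrays. The number called lower there was 1 and became 0 after median centring and on the poly-A scale. In ρ0 the number called higher was 2, 0 with poly-A scaling, 1 with both arrays left out, and 1 to 3 without single arrays. Between the strains it ranged from 0 to 1 without single arrays, lower in glucose and higher without. For the difference of responses the 1 call was lost (0) with poly-A scaling, with no intensity trend and with both arrays left out, and it ranged from 0 to 1 without single arrays. The replicate block joins same-numbered arrays across the strains as well as the media, so it is no fit of the separate cultures. With the replicate block, VMA1 was called on withdrawal in ρ+ (adjusted p = 0.0143) and in ρ0 (0.0212). The count of all genes with a higher response in ρ0 went from 84 to 160 with it. Of 6 arrays per comparison, 2 or 3 correlated best with their own number. Over all genes, the lower calls on withdrawal in ρ+ were 1193, and 548 after median centring or 341 with poly-A scaling; in ρ0 the higher calls were 246, and 444 or 55. In ρ0 against ρ+ without glucose the higher calls were 1102, and 442 or 263. The VPH1 to STV1 and VMA11 to VMA3 ratios moved by less than the spread between replicates. Where no cause is given above, the cause was not tested.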
